A study of Mus musculus with 3 samples.

Results

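Natural killer receptors were followed through droplet single-cell RNA-sequencing of leukocytes from mouse glioblastoma. The 10 receptor genes were chosen by symbol (Ncr1, Klrb1c, Klra4, Klra8, Klre1, Klrd1, Klrk1, Klrc1, Klrc2 and Klrg1), and each was found among the 31053 genes counted. All mice were C57BL/6 females, 6 to 8 weeks old, that carried BT0309 brain tumor-initiating cells in the right striatum. That line came from a mouse with Trp53+/- and Nf1+/- alleles, carried firefly luciferase and GFP, and is a single tumor line, so the groups share 1 tumor background. The control group was given saline vehicle and the niacin group 100 mg/kg niacin daily by intraperitoneal injection from day 7, and brains were taken 4 weeks after implantation. Leukocytes were enriched on Percoll and live cells were sorted with SYTOX Red. The files held 1 control library (control 2) and 2 niacin libraries (niacin 1 and niacin 2), and the labels state that 4 brains were pooled per sample. Other stated numbers of mice per group do not match this pooling, and which mice make up which library is not given in the sources used here. The library, not the mouse, was the replicate.

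Natural killer (NK) cells decide whether to kill a target by adding up signals from activating and inhibitory receptors, many of which are C-type lectin-like proteins encoded side by side in the NK gene complex. Activating receptors lack a signaling tail of their own and work through adaptors such as DAP12 (Tyrobp), DAP10 (Hcst) and the Fc receptor gamma chain (Fcer1g). Inhibitory receptors such as NKG2A (Klrc1) carry inhibitory motifs and read MHC class I on the target. Some of these receptors, NKG2D (Klrk1) and the CD94-NKG2 pairs above all, are also made by activated CD8 T cells, and in the brain NK cells are rare outside disease.

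In the GENCODE M21 annotation of GRCm38 (mm10), 9 of the 10 genes lay on chromosome 6 and Ncr1 lay on chromosome 7 (4337724 to 4345164, plus strand), in the separate leukocyte receptor region. Of those on chromosome 6, 8 fell within 1.351 Mb, from Klrb1c (128778485 to 128789215, minus strand) to Klra8 (130115226 to 130129898, minus strand). Klre1, Klrd1, Klrk1, Klrc2 and Klrc1 followed each other with gaps of 5325 to 23631 bases. Klra4 (130043731 to 130067271, minus strand) was 47954 bases from Klra8, and Klrg1 (122270596 to 122282882, minus strand) stood 6.496 Mb away from Klrb1c. Because these genes arose by duplication, all windows of 91 bases in the last 500 bases of their transcripts were compared with the transcripts of every other gene. No window was shared for Ncr1, Klra4, Klra8, Klre1, Klrd1, Klrk1 or Klrg1. Of the windows of Klrc1, 21.5% also occurred in Klrc2, 6.12% of those of Klrc2 occurred in Klrc1 or Klrc3, and 11.3% of those of Klrb1c occurred in Klrb1a or Gm44511, so counts of these 3 genes are less certain.

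Promoter sequences from RefSeq (GRCm38.p6) were matched for 8 of the 10 genes by symbol, all except Klrd1 and Klrg1. The 250 bases before the start of 5 of them are shown because these genes fell on the 2 sides of the main contrast below: Ncr1, Klra4 and Klra8 were almost or entirely absent from CD8 T cells, and Klrk1 and Klrc1 were present in them. Capitals mark matches to a Runx motif (TGTGGT), a T-box motif (AGGTGT), an Ets motif (GGAAGT) or a Stat motif (TTCNNNGAA) on either strand.
Ncr1 (chr7:4337465-4337714, plus strand): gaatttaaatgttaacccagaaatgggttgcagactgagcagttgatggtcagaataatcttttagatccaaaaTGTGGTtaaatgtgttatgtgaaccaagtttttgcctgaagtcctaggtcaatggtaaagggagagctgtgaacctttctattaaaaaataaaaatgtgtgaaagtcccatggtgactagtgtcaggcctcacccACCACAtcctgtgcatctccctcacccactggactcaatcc
Klra4 (chr6:130067272-130067521, minus strand): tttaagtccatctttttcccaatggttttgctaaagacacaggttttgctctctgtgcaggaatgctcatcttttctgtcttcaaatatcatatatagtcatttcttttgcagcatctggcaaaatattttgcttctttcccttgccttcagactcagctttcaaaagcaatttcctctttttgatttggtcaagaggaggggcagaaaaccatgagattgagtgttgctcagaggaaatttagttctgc
Klra8 (chr6:130129899-130130148, minus strand): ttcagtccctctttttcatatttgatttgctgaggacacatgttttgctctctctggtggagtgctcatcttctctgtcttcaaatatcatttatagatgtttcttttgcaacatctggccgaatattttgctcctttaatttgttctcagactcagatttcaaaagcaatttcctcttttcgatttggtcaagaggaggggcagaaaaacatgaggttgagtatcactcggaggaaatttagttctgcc
Klrk1 (chr6:129623865-129624114, minus strand): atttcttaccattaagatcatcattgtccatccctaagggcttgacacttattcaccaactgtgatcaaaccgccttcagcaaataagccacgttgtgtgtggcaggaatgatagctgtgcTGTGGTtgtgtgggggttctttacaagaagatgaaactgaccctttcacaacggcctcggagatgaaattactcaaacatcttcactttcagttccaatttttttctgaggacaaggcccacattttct
Klrc1 (chr6:129678974-129679223, minus strand): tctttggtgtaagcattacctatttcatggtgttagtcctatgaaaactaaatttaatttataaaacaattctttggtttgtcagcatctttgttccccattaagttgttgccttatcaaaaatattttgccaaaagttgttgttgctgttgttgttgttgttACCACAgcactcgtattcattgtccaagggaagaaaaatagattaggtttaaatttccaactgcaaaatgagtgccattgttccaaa

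The Runx letters were found in 6 of the 8 promoters, with 2 matches each in Ncr1 and Klrc2 and 1 each in Klrb1c, Klre1, Klrk1 and Klrc1. By the GENCODE coordinates, however, the RefSeq stretches of Klrb1c and Klre1 lay inside the gene, and that of Klrc2 overlapped it. Over all 32817 promoters 14% held them, 11.8% held the T-box letters, 19.7% the Ets letters and 7.01% the Stat letters. No T-box or Stat match occurred in any of the 8, and the Ets letters occurred once, in Klrb1c. The Klra4 and Klra8 stretches were identical at 212 of 251 aligned positions (84.5%), whereas every other pair lay between 43.3% and 52.8%. A match describes letters only, and binding was not measured here.

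Together the libraries held 6947 barcodes and 8301228 to 10359526 unique molecular identifiers (UMIs) each, and 5528 barcodes passed the thresholds of the study, a minimum of 200 genes and a mitochondrial share no higher than 20%. The libraries did not hold separate sets of barcodes: 924 barcodes occurred in at least 2 of them, and the deeper copy had a median of 13.9 to 20.6 times the UMIs of the shallower. Only the deepest copy was used, which left 4345 cells (1324, 1421 and 1600), and the tests were also run with all copies and with no shared barcode. Cells were clustered without any Klr gene or Ncr1 among the variable genes, so that the receptors took no part in the classes. Within lymphocyte clusters, CD8 T cells had UMIs of Cd3d or Cd3e and of Cd8a or Cd8b1, CD8-negative T cells had the former only, and NK-like cells had neither but at least 2 of 12 NK genes that are not of the NK receptor families.

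By this gate 143 cells were NK-like, 168 were CD8 T and 311 were CD8-negative T. NK-like cells made up 8.08% of the control library (107 cells) and 1.06% and 1.31% of niacin 1 and niacin 2 (15 and 21 cells), a gap between 1 and 2 libraries that was not tested. They were shallow in control 2 and niacin 1, with median UMIs of 1308 and 1142 and 6443 in niacin 2, against 6081 to 7565 in CD8 T cells, and 98 of the 143 had at least 5 of the 12 gate genes. Il2rb was found in 89.5% of NK-like cells, Txk in 75.5%, Gzma in 67.1% and Prf1 in 54.5%, which describes the gate. Some of the 12 gate genes were found in fewer NK-like than CD8 T cells, without thinning. These were Nkg7 (51.7% against 84.5%), Ccl5 (46.9% against 78.6%), Ctsw (49.0% against 83.3%) and Xcl1 (18.9% against 43.5%). The rest were found in more NK-like than CD8 T cells. In mean counts per 1000000 UMIs, Nkg7 (1987 against 1209), Ccl5 (6414 against 3579) and Ctsw (698 against 526) were higher in NK-like cells. The libraries of the 2 classes overlapped for each of these genes. T cell transcripts that the gate did not read were present: Trbc2 in 29.4%, Cd3g in 20 of the 143 cells, Trac in 6.29% and Cd4 in 4.20%. By construction Cd3d, Cd3e, Cd8a and Cd8b1 were at 0 in NK-like cells. The 10 T cell markers, these 4 included, summed to 440 to 1015 CPM (counts scaled to a total of 1000000 per class and library) in NK-like cells, against 5377 to 8388 CPM in CD8 T cells, a gap that the gate largely sets. The 13 monocyte or macrophage markers summed to 821 to 1930 CPM in NK-like cells (4 to 8 of them at 0) and 1748 to 1943 CPM in CD8 T cells, and the 6 granulocyte markers to 239 to 755 CPM in NK-like cells. Their part in the results was not tested.

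Every receptor was higher in NK-like than in CD8 T cells, and the values of the 3 NK-like sums lay above the 3 CD8 T sums for each. How many of all genes separated in this way was not counted. With edgeR's quasi-likelihood test on UMI sums per library, with library as a block and Benjamini-Hochberg adjustment over 3899 genes, 10 of 10 receptors were higher in NK-like cells, where 3.31% of all genes tested were higher, 4.21% were lower and 7.51% were called in either direction. The median log2 fold change was 3.23 over the receptors and -0.02 over all genes. Ncr1, Klra4, Klra8, Klrb1c and Klrg1 had enough counts to be tested through their NK-like sums alone, and they are part of this count and median. The receptors were chosen with earlier results of these data known. In addition, the NK-like gate asked for NK genes and the CD8 T gate did not. This contrast was therefore partly set in advance, and the shares over all genes are no test of the receptors as a set. Their levels in CD8 T cells, from UMIs of transcript 3′ ends and thus not scaled by length, are shown in the plot of CPM by class: Ncr1, Klrb1c, Klra4, Klra8 and Klrg1 were at 0 to 17.8 CPM in each CD8 T sum, and Klrk1, Klrc1, Klrc2, Klrd1 and Klre1 at 53.4 to 269 CPM.

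**Figure D1:**
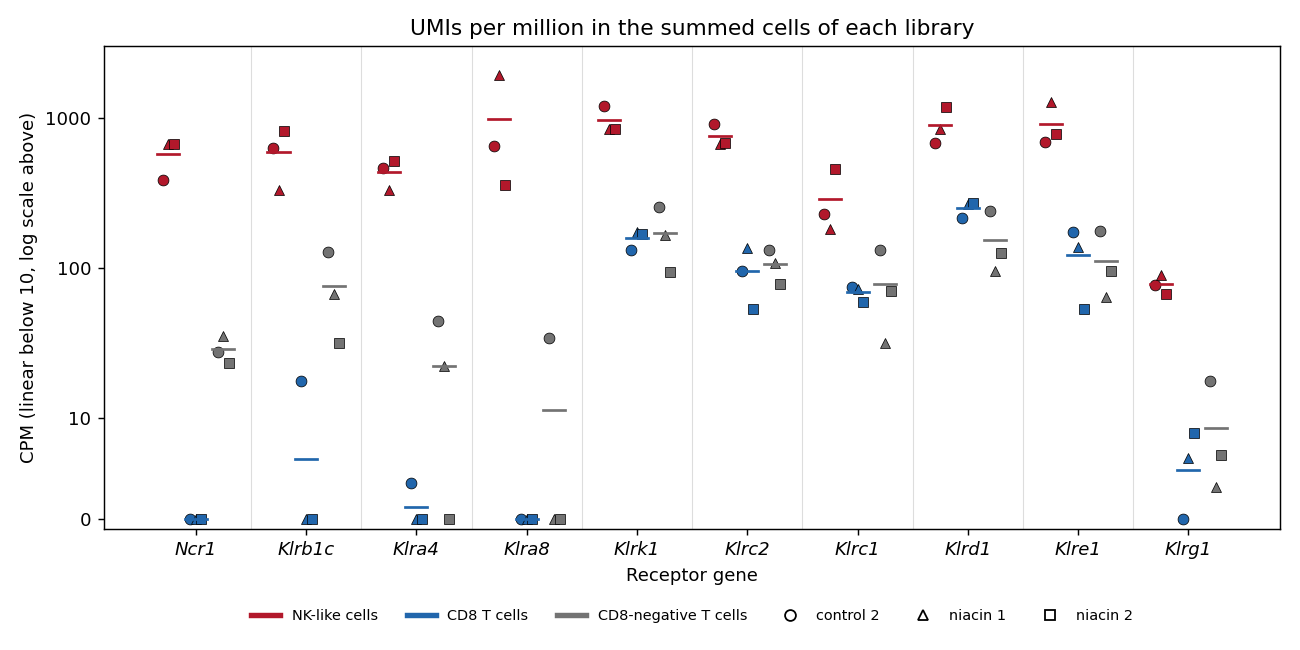
CPM of the 10 receptors in the summed NK-like (red), CD8 T (blue) and CD8-negative T (grey) cells of each library, on an axis that is linear below 10 and logarithmic above. Points are libraries (circle, control 2; triangle, niacin 1; square, niacin 2) and lines are their means; all red points lie above the blue points of the same gene, and Ncr1 and Klra8 lie at 0 CPM in CD8 T cells.

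Ncr1 encodes NKp46, an activating receptor of the immunoglobulin family that is widely used to identify NK cells. Its level in NK-like cells was 383 CPM in the control library, 664 CPM in niacin 1 and 668 CPM in niacin 2. No Ncr1 UMI was found among the 1082329 UMIs of the 168 CD8 T cells, so the gene was at least 181-fold higher in NK-like cells, taking 3 counts over all CD8 T cells as the limit that a count of 0 allows (2.77 CPM). Its call (adjusted p = 3.58e-07, edgeR) thus compared 181 UMIs with none, and the gene had enough counts to be tested through its NK-like sums alone.

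Klra4 and Klra8 encode Ly49D and Ly49H, activating receptors that pair with DAP12; Ly49H is known for recognizing a cytomegalovirus protein and Ly49D for binding MHC class I. Klra8 was at 651, 1932 and 355 CPM in the NK-like cells of control 2, niacin 1 and niacin 2 and at 0 in all CD8 T sums, at least 242-fold higher over the pooled cells. The value of 1932 CPM in niacin 1 rested on 64 UMIs in 4 of 15 cells. Klra4 was at 464, 332 and 516 CPM in NK-like cells, and its 169 UMIs stood against 1 UMI in CD8 T cells, a pooled ratio of 508 with an exact 95% counting interval of 89.9 to 20175. Both genes were called by edgeR (adjusted p = 3.49e-07 for each), and their folds are better read from these counts, since a fitted fold against a group at or near 0 depends on the prior count. Both had enough counts to be tested through their NK-like sums alone. The near-absence also depended on the gate: with Cd3g added to the CD3 genes, the 176 CD8 T cells held 1 Ncr1, 11 Klra4 and 4 Klra8 UMIs against 149, 159 and 241 in 123 NK-like cells, and the log2 fold changes were 8.48, 5.38 and 7.68, still called by edgeR.

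Klrb1c encodes NK1.1, the surface antigen by which NK cells are sorted in C57BL/6 mice. It was at 632, 332 and 812 CPM in NK-like cells, and CD8 T cells held 5 UMIs, all in the control library (17.8 CPM there and 0 in the niacin libraries). The pooled ratio was 144 with an exact 95% counting interval of 60.7 to 446. The fitted log2 fold change of 6.65 had a standard error (SE) of 0.57 (adjusted p = 2.27e-06, edgeR) and moved to 10.01 without the control library, 5.54 without niacin 2 and 8.16 with DESeq2. Klrg1, an inhibitory receptor for cadherins that marks mature NK and effector T cells, was sparse in every class. It was at 76.6, 90.6 and 67.7 CPM in NK-like cells from 27 UMIs, against 6 UMIs in CD8 T cells, with a log2 fold change of 3.56 (SE 0.71, adjusted p = 0.00544, edgeR). Without the cells of the highest 5% of doublet scores it no longer had enough counts to be tested. Klrb1c and Klrg1 also had enough counts to be tested through their NK-like sums alone.

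The receptors that CD8 T cells also carried differed less. Klrk1 encodes NKG2D, which binds stress-induced MHC-like ligands on tumor and infected cells. It was at 1197, 845 and 838 CPM in NK-like cells and 131, 174 and 169 CPM in CD8 T cells of control 2, niacin 1 and niacin 2, with no overlap (log2 fold change 2.40, SE 0.29, adjusted p = 5.05e-05, edgeR). Klre1, which forms inhibitory or activating pairs with Klri1 or Klri2, was at 694, 1268 and 778 CPM against 174, 138 and 53.4 CPM (log2 fold change 2.77, SE 0.32, adjusted p = 4.12e-05, edgeR). Its partner Klri2, of the list of other NK receptors, was at 76.1 to 268 CPM in NK-like cells and had 1 UMI in CD8 T cells, whereas Klri1 had 3 UMIs in NK-like cells and none in CD8 T cells.

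Klrd1 encodes CD94, the chain that joins NKG2A or NKG2C to form receptors for the nonclassical MHC molecule Qa-1. It differed least, at 680, 845 and 1176 CPM in NK-like cells and 217, 265 and 269 CPM in CD8 T cells (log2 fold change 1.64, SE 0.25, adjusted p = 0.000816, edgeR). Its activating partner Klrc2 (NKG2C) was at 914, 664 and 677 CPM against 95.9, 135 and 53.4 CPM (log2 fold change 2.90, SE 0.31, adjusted p = 1.49e-05, edgeR). Its inhibitory partner Klrc1 (NKG2A) was at 230, 181 and 457 CPM against 74.6, 72.2 and 59.8 CPM (log2 fold change 1.92, SE 0.33, adjusted p = 0.0019, edgeR). The 2 chains share part of their 3′ sequence (above), so reads of Klrc1 and Klrc2 may not be fully separated.

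**Figure D2:**
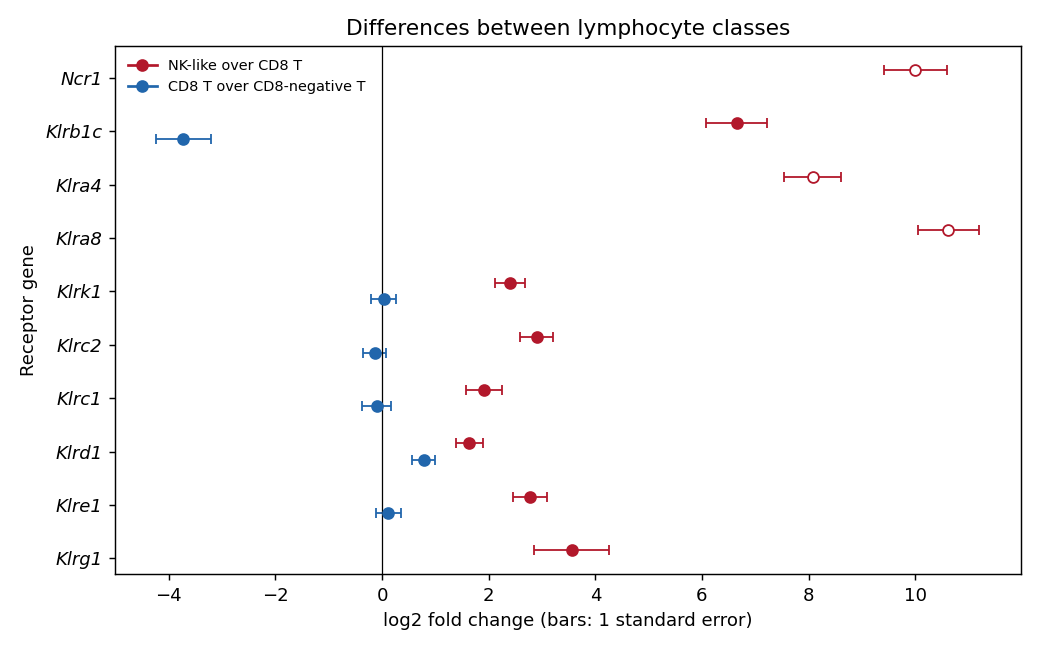
Log2 fold changes of NK-like over CD8 T sums (red) and of CD8 T over CD8-negative T sums (blue) from edgeR, with bars of 1 SE. Open red circles are Ncr1, Klra4 and Klra8, with at most 1 UMI in CD8 T cells, whose fitted fold depends on the prior count; genes without a blue point had too few counts for that test. Red values run from 1.64 (Klrd1) upward, and blue values lie between -0.14 and 0.78 except for Klrb1c at -3.72.

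With all copies of shared barcodes, 10 of 10 receptors were again higher in NK-like cells by the same test, and so they were when NK-like cells with a UMI of Trac, Cd3g or Cd4 were left out. With no shared barcode 8 of 10 were, and Klrd1 (log2 fold change 1.35, adjusted p = 0.0739) and Klrc1 (1.69, adjusted p = 0.0605) missed the threshold. Klrc1, higher in each of the 3 libraries, also missed it without the control library (2.21, adjusted p = 0.0663) and without niacin 2 (1.34, adjusted p = 0.0531, edgeR). The share of all genes called in each of these settings is not given here. The counts of receptors called are thus no test of them as a set.

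Depth differs between the classes, so the share of cells with a UMI was compared after thinning each cell to 1000 UMIs, which left out 34 of 143 NK-like, 2 of 168 CD8 T and 2 of 1120 microglia cells. Klrk1 was then found in 59.6% of NK-like cells (65 of 109, exact 95% interval 49.8 to 68.9%) and 14.5% of CD8 T cells (9.49 to 20.7%). Klrd1 was found in 47.7% and 21.7%, Klre1 in 46.8% and 7.23%, Klrc2 in 44.0% and 8.43%, and Klrc1 in 17.4% and 7.23%. Klrb1c was found in 42.2% and 1.20%, whereas Ncr1 and Klra8 (both 27.5%), Klra4 (19.3%) and Klrg1 (6.42%) were found in 0 of 166 CD8 T cells. A count of 0 of 166 cells allows a share of up to 1.81%. Microglia, which should lack these genes, gave 0 to 0.0894% for every receptor but Klrd1, which reached 1.25% (14 of 1118). Without thinning, Klrd1 was found in 55.2% of NK-like and 51.8% of CD8 T cells and Klrk1 in 33.3% of CD8 T cells. Intervals and limits cover counting error only. All these shares pool the libraries, and class was mixed with library: thinned, 81 of 109 NK-like but 42 of 166 CD8 T cells were from control 2. In control 2, niacin 1 and niacin 2, thinned Klrd1 shares were 39.5%, 66.7% and 73.7% of NK-like cells. Those of Klre1 were 16.7%, 6.45% and 1.61% of CD8 T cells. In niacin 1 the order of Klrc1 was reversed, with 0 of 9 NK-like and 5 of 62 CD8 T cells. Every other receptor kept its order in each library.

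At the same depth an NK-like cell carried a median of 4 of the 10 receptors (mean 3.39), and 71.6% carried at least 3. A CD8 T cell carried a median of 0 (mean 0.602), and 5.42% carried at least 3. The NK-like means were 3.21, 3.56 and 4.05 in control 2, niacin 1 and niacin 2, and those of CD8 T cells were 0.714, 0.645 and 0.484. Among NK-like cells 13.8% had none of the 10, against 58.4% of CD8 T cells.

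Within the 143 NK-like cells, unthinned, the receptors combined in many ways. Ly49D and Ly49H transcripts overlapped only in part, with 18 cells holding both, 14 only Klra4 and 22 only Klra8. Of the NKG2 pair, 32 cells held both Klrc1 and Klrc2, 48 only Klrc2 and 2 only Klrc1. Klrd1 was found in 29 of the 34 cells with Klrc1 and 50 of the 109 without, and of the 79 cells with Klrd1, 61 had Klrc2. Of the 51 cells with Ncr1, 43 had Klrk1 and 40 had Klrb1c. In shallow cells a missing UMI does not mean a missing transcript, and deeper cells give more pairs, so these counts describe detection only.

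The split of CD3-positive cells by Cd8 showed how far the receptors followed the CD8 lineage. Of the 6 receptors with enough counts, 4 did not pass the test: the log2 fold changes of CD8 T over CD8-negative T cells were 0.12 for Klre1 (SE 0.24), 0.03 for Klrk1 (SE 0.23), -0.10 for Klrc1 (SE 0.27) and -0.14 for Klrc2 (SE 0.21), with adjusted p from 0.868 to 0.986 (edgeR, 5343 genes tested, of which 1.93% were higher and 1.85% lower in CD8 T cells, 3.78% in all). None of these 4 is thereby shown to be equal, since the libraries went opposite ways. Klrk1 was at 131 CPM in CD8 T and 256 CPM in CD8-negative T cells of the control library but at 169 and 93.5 CPM in niacin 2, and Klrc1 was at 74.6 and 131 CPM in the control library but at 72.2 and 31.9 CPM in niacin 1. Klrb1c was lower in CD8 T cells, at 17.8, 0 and 0 CPM against 127, 66.9 and 31.9 CPM (log2 fold change -3.72, SE 0.51, adjusted p = 0.00012, edgeR). Without the library block its adjusted p was 0.147. Klrb1c had enough counts to be tested there through its CD8-negative T sums alone, and its fitted fold depends on the prior count. Klrd1 was higher in CD8 T cells (0.78, SE 0.22, adjusted p = 0.0462), but the call held in 5 of 12 alternatives only, and in the control library the order was the opposite, with 217 CPM in CD8 T and 241 CPM in CD8-negative T cells.

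Ncr1, Klra4, Klra8 and Klrg1 had too few counts to be tested there. Ncr1 was at 27.8, 35.1 and 23.4 CPM in CD8-negative T cells and at 0 in CD8 T cells. Those UMIs came from 13 cells, which had a median of 3 UMIs of Cd3d and Cd3e; 4 of them had a single such UMI, 4 had Trac and none had Cd4. Klra8 was seen in 5 CD8-negative T cells, all in the control library (34.1 CPM), and Klra4 was at 44.2, 22.3 and 0 CPM. By contrast 57.3% of the 199 CD8-negative T cells with none of the 10 receptors had Cd4, the coreceptor of helper and regulatory T cells. In those cells without a receptor the median was 5 CD3 UMIs, and 36 of the 199 had a single one. The part of low CD3 counts in the Ncr1 values was not tested.

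Outside the lymphocytes the receptors were scarce, with an exception for NKG2D, as the map of mean levels by class shows. Klrk1 had 1171 UMIs in all cells used, of which 280 were in monocyte or macrophage-like cells. Its level there was 97.6 CPM in the control library (101 of 372 cells), 10.7 CPM in niacin 1 (3 of 90) and 29.0 CPM in niacin 2 (8 of 93). Microglia held 3 Klrk1 UMIs in 1120 cells, at 1.78, 0.310 and 0 CPM. Ncr1 had 2 UMIs in microglia, 1 in monocyte or macrophage-like cells and none in granulocyte-like, B-like, erythrocyte-like or cycling cells.

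**Figure D3:**
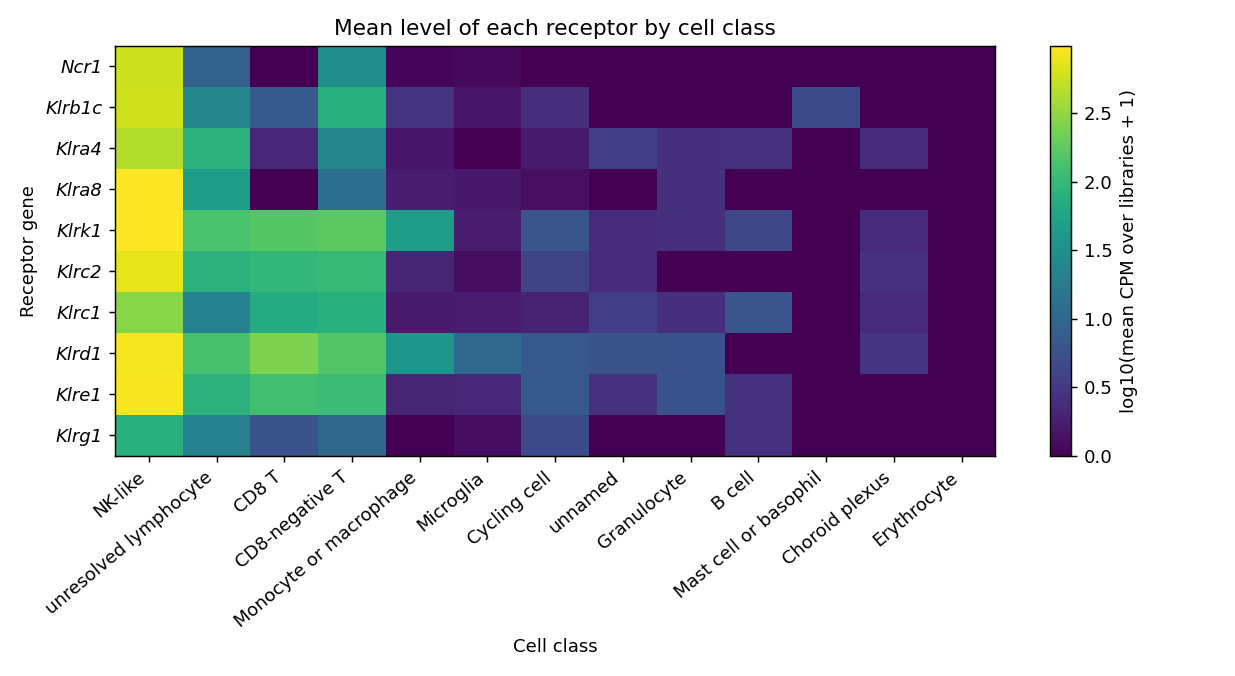
Mean level of each receptor over the libraries, as log10(CPM + 1), in the 13 cell classes. The NK-like column is the brightest for all 10 receptors; outside the lymphocyte classes, Klrk1 and Klrd1 in monocyte or macrophage-like cells stand out.

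The 3 clusters that made up the monocyte or macrophage-like class all held Klrk1. In the cluster led by Kmo, Flt3 and Clec10a, 23.1% of 216 control cells had Klrk1 (243 CPM), against 6.06% of 33 niacin 1 cells (68.7 CPM) and 3.03% of 33 niacin 2 cells (7.55 CPM). In the cluster led by Arg1, which held 138 control cells and 1 niacin cell, 34.1% did (54.1 CPM), and these cells were deep, with a median of 12632 UMIs. In the cluster led by Cd300e, Fabp4 and Ear2, 4 of 18 control, 1 of 57 niacin 1 and 7 of 59 niacin 2 cells did. UMIs of Cd3d or Cd3e were found in 2 of 53, 3 of 47 and 0 of 12 of these Klrk1-positive cells. Hcst, whose product carries the NKG2D signal, was found in 3.77%, 23.4% and 58.3% of them and in 7.42%, 44.6% and 48.4% of the Klrk1-negative cells of the same clusters. In the Kmo cluster Klrd1 was found in 15 of 53 Klrk1-positive and 9 of 229 Klrk1-negative cells, with median UMIs of 3036 and 1759, and the part of NK transcripts and depth in the Klrk1 counts was not tested.

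Thinned to 1000 UMIs, Klrk1 was found in 8.61% of monocyte or macrophage-like cells of the control library, 1.18% of niacin 1 and 2.22% of niacin 2, above the 0.0894% of microglia. With 1 control library the gap between treatments was not tested, and the mix of the 3 clusters differed between the libraries. Without shared barcodes the levels were 103, 25.7 and 0 CPM, and with all copies 96.1, 23.3 and 33.7 CPM, with the control library highest under both. Klrd1 was at 29.7, 16.8 and 61.8 CPM in the same class, in 6.45 to 6.67% of cells, and without shared barcodes niacin 2 fell to 3.04 CPM. In 5 niacin 2 cells of the cluster led by Cd300e, 48 Klrd1 UMIs were counted. Klrd1 also occurred in 4.73% of microglia, at 8.44 to 10.7 CPM.

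**Figure D4:**
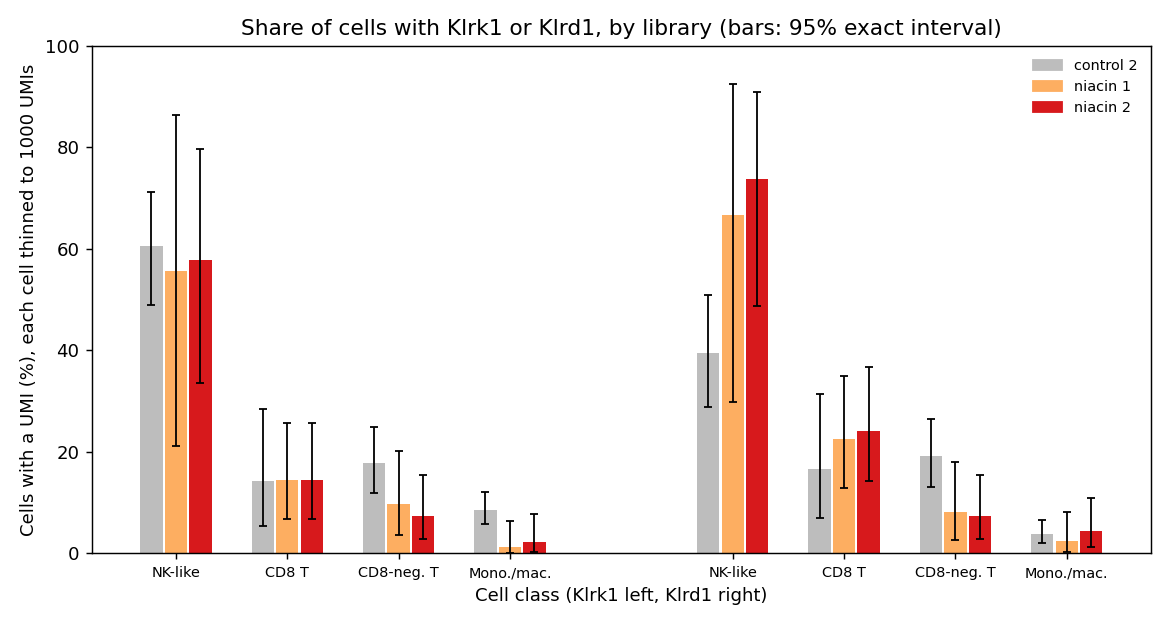
Share of cells with a Klrk1 UMI (left) or a Klrd1 UMI (right) by class and library, each cell thinned to 1000 UMIs; bars are shares and whiskers exact 95% binomial intervals. Klrk1 reached 55.6 to 60.5% in NK-like cells and 14.3 to 14.5% in CD8 T cells, and 8.61% of control monocyte or macrophage-like cells.

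Among 5 classes the order of the mean Klrk1 levels was NK-like (838 to 1197 CPM), CD8-negative T (93.5 to 256 CPM), CD8 T (131 to 174 CPM) and monocyte or macrophage-like (10.7 to 97.6 CPM), with microglia last. The middle pair overlapped. For Klrd1 the order was NK-like (680 to 1176 CPM), CD8 T (217 to 269 CPM), CD8-negative T (95.6 to 241 CPM) and monocyte or macrophage-like (16.8 to 61.8 CPM), and again the T cell classes overlapped.

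The niacin libraries were then set against the control library within NK-like cells. None of the 10 receptors passed the test in either direction (edgeR, 3159 genes, 1 control and 2 niacin sums), where 0.443% of all genes were higher in niacin, 0.222% were lower and 0.665% were called in all. The control library had no replicate and was assumed to vary like the niacin libraries. The log2 fold changes of niacin over control ran from -0.46 (Klrk1, SE 0.63) to 0.85 (Ncr1, SE 0.64), with adjusted p from 0.559 to 0.997, and their median was 0.29 against -0.04 for all genes. The standard errors of 0.61 to 0.82 are wide beside these values, and a miss at this size does not show that the receptors were alike under both treatments.

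Counts in single libraries were small. NK-like cells of niacin 1 held 11 UMIs of Klrb1c, 11 of Klra4, 6 of Klrc1 and 3 of Klrg1. Klra8 was highest in niacin 1 and lowest in niacin 2, with the control library between them, so its direction changed with the niacin library used: the log2 ratio was 1.66 without niacin 2 and -0.62 without niacin 1. Ncr1 was higher in both niacin libraries (664 and 668 CPM) than in the control (383 CPM), and Klrd1 likewise (845 and 1176 against 680 CPM). Klrk1 and Klrc2 were lower in both, at 838 to 845 against 1197 CPM and at 664 to 677 against 914 CPM. None of these gaps passed the test.

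**Figure D5:**
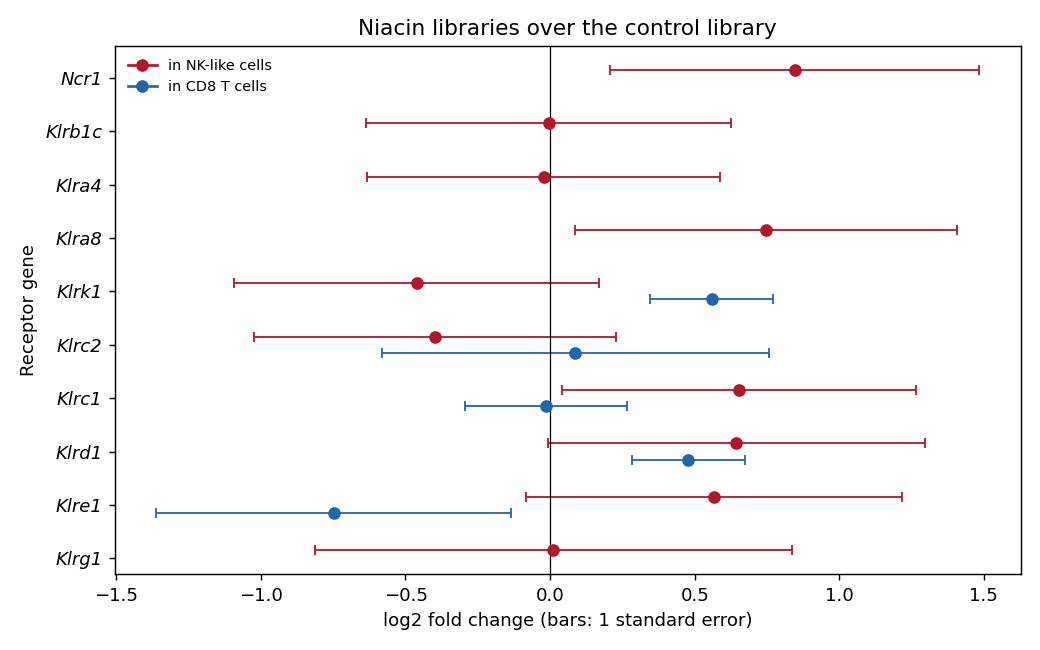
Log2 fold changes of the niacin libraries over the control library in NK-like (red) and CD8 T sums (blue), with bars of 1 SE from edgeR; genes without a blue point had too few counts in CD8 T cells. No value passed the test, and the red values lie between -0.46 and 0.85.

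In CD8 T cells 5 receptors had enough counts and none passed (edgeR, 5544 genes). In that comparison 0.0% of genes passed after adjustment, 750 had an unadjusted p under 0.05, and DESeq2 called 70 genes, none of them a receptor. Klrk1 was at 131 CPM in the control and 174 and 169 CPM in the niacin libraries (log2 fold change 0.56, SE 0.21, adjusted p = 0.37). Klrd1 was at 217 CPM against 265 and 269 CPM (0.48, SE 0.20, adjusted p = 0.385). Klre1 moved in the other direction, at 174 CPM against 138 and 53.4 CPM (-0.75, SE 0.61, adjusted p = 0.57). The values of Klrc1 (-0.01, SE 0.28) and Klrc2 (0.09, SE 0.67) were near 0. The difference between NK-like and CD8 T cells was also tested for a dependence on treatment, and no receptor passed (Ncr1 and Klra8, at 0 in CD8 T cells, gave no usable value), the lowest adjusted p being 0.815 for Klrb1c (edgeR). Of 3899 genes in that test none passed, and 200 had an unadjusted p under 0.05.

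Of 27 other NK receptors listed, 25 were in the files and 14 had enough counts for the test of NK-like against CD8 T cells. Of these 9 were higher in NK-like cells and none was lower, where 3.31% of all genes tested were higher and 4.21% lower. The median log2 fold change over the 14 was 2.78 against -0.02 for all genes. Of the 9, the NK1.1 relatives Klrb1a, Klrb1b and Klrb1f and the gene Klri2 had 47, 82, 91 and 72 UMIs in NK-like cells and 1 UMI each in CD8 T cells, so that no fold is given for them. They had enough counts to be tested through their NK-like sums alone, as did Klra9, Klra3, Cd244 and Fcgr3 below. The fitted folds of all these genes are part of that median. The count and the median thus depend largely on which listed genes had enough counts. The others of the 9 included, in log2 fold change, the Ly49 genes Klra9 (4.95, SE 0.51), Klra3 (2.98, SE 0.52) and Klra7 (2.01, SE 0.28), and Cd244 (4.10, SE 0.37), the receptor 2B4. Fcgr3, an Fc receptor that myeloid cells also make, was the ninth (2.59, SE 0.62, adjusted p = 0.0198). Those that did not pass are shared with T cells: Cd226 (-1.01, SE 0.31, adjusted p = 0.0592), Cd96, Cd160, Slamf6 and Slamf7.

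In CD8 T against CD8-negative T cells 6 of that list were tested. Cd160 (1.62, SE 0.21), Cd226 (0.75, SE 0.16) and Slamf7 (1.80, SE 0.26) were higher in CD8 T cells and Slamf6 was lower (-1.76, SE 0.27), in log2 fold change, all with adjusted p under the threshold (edgeR). In NK-like cells Cd160, found on NK and CD8 T cells, was at 23.9 CPM in the control library (5 UMIs) and 332 and 118 CPM in niacin 1 and niacin 2 (11 and 14 UMIs). Its call for niacin (log2 fold change 3.01, SE 0.81, adjusted p = 0.042, edgeR) rests on a single control library with an assumed spread, and no gene was called with Cd3g in the gate, with no shared barcodes or at resolution 0.8. Beside it stood Cd3g at 57.5, 151 and 406 CPM, whose part was not tested.

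Of 16 listed adaptors and signaling molecules through which the receptors act, 13 were tested between NK-like and CD8 T cells. Of these 4 were higher and 2 lower, where 3.31% of all genes tested were higher and 4.21% lower. The median log2 fold change of the 13 was 0.12. Tyrobp (4.69, SE 0.51) and Fcer1g (4.60, SE 0.34), the adaptors of Ly49D, Ly49H and NKp46, were higher, but the NK gate read both, so this is not an independent result; a gate without them left all 10 receptors higher. The kinase Syk (31 UMIs in NK-like and 1 UMI in CD8 T cells, adjusted p = 0.0012, edgeR) and Lat2 (log2 fold change 3.49, SE 0.54, adjusted p = 0.000793, edgeR) were higher as well. Syk and Lat2 had enough counts to be tested through their NK-like sums alone. Lat, a scaffold of T cell receptor signaling, was lower (-2.45, SE 0.39, adjusted p = 0.000947), as was Hcst (-1.08, SE 0.27, adjusted p = 0.0228), the DAP10 adaptor of NKG2D, at 230 to 744 CPM in NK-like and 540 to 1029 CPM in CD8 T cells (edgeR).

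Of 17 listed ligands of the receptors, 12 were in the files. Of the stress ligands of NKG2D, Raet1a, Raet1b, Raet1c and H60a were not analysed here. Over the classes other than unnamed and unresolved cells, Raet1d had 9 UMIs, Raet1e 5, H60b 26 and H60c none. Ulbp1 had 137 UMIs, 55 of them in cycling cells, where it was at 12.4 to 37.6 CPM. H2-T23, which encodes the Qa-1 molecule read by CD94-NKG2 receptors, had UMIs in every such class, from 0 to 12.2 CPM in erythrocyte-like cells to 348 to 909 CPM in monocyte or macrophage-like cells. Cdh1, the E-cadherin read by Klrg1, was higher in CD8 T than in CD8-negative T cells (log2 fold change 3.06, SE 0.46, adjusted p = 0.000247, edgeR), the only one of 5 ligands tested to pass, and none of 5 passed between NK-like and CD8 T cells. No class was named as tumor cells, so ligands on the tumor itself were not analysed here.

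Over 37 sums of class and library with at least 10 cells, the summed level of the 10 receptors was most like those of Il2rb (Pearson r = 0.96 on log2(CPM + 10), among 6418 genes), Ifng and Fasl (both 0.93), Ccl5 (0.93), Sla2 (0.93), Samd3 (0.92), Klra7 (0.92), Osbpl3 (0.92), AW112010 (0.91) and Ms4a4b (0.91). Il2rb is the receptor chain for interleukin 2 and interleukin 15, and Ifng and Fasl encode effector molecules of NK and T cells. Il2rb and Ccl5 were gate genes. The sums share libraries, and most of the spread is that between lymphocytes and all other classes, so these values describe a pattern only. With a pseudocount of 1, 9 of the 10 genes were the same.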

How the data were processed

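Leukocytes of 3 libraries were sequenced by 10x 3′ v3.1 chemistry. Per the labels and the study's methods, the authors made the deposited counts (whole UMI counts per gene and barcode, not normalized) with Cell Ranger 3.1, which aligns with STAR, on mm10; no per-sample column was left unmapped (0). Barcodes with 200 or more genes and no more than 20% mitochondrial UMIs were used, 1 copy (the deepest) of each shared barcode. Cells were clustered in Seurat 5.3.0 (2000 variable genes less all Klr genes and Ncr1, 30 components, resolution 0.5) and named from fixed markers, at least 3 per class. A cluster of 1027 shallow cells stayed unnamed. Scrublet (scanpy 1.11.5) marked 18 of 4345 cells (0.414%), under the share at which its calls can be used, so doublets were kept and the 5% highest scores were removed in an alternative.

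UMIs were summed per library and class and tested with edgeR 4.0.16 (R 4.3.3; TMM, filterByExpr, quasi-likelihood F-test, library as a block between classes, Benjamini-Hochberg over all genes tested, threshold 0.05). DESeq2 1.42.0, other gates, filters, scalings and single libraries left out were alternatives; 2 of the gates were added after seeing the data. On simulated counts with 200 genes changed 4-fold, 78.5% were recovered in NK-like against CD8 T cells (3858 genes tested) and 87.5% in CD8 T against CD8-negative T cells (5374 genes tested), and 1.26% and 5.91% of the calls were of unchanged genes. Because each library pools brains, p-values measure the spread between libraries only. Intervals are exact at 95% (scipy 1.17.1), and a count of 0 allows 3 counts. Named genes were the 10 receptors, the gate genes, genes of the lists of other NK receptors, adaptors and ligands, and the 10 genes most like the summed receptors among those with a mean of at least 20 CPM. The members and lists were chosen with earlier results of these data known.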

Additional observations from a re-analysis of the deposited data

How the results depend on the processing

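Between NK-like and CD8 T cells 293 genes were called, 163 with DESeq2, 116 with no replicate block, 111 with no shared barcodes and 81 to 230 when a library was left out (81 without the control library). Between CD8 T and CD8-negative T cells 202 were called, 61 with DESeq2, 307 with no filter on low counts, 10 with no replicate block and 77 (without niacin 2) to 263 (without niacin 1) when a library was left out. For niacin in NK-like cells 21 were called, none (0) with Cd3g in the gate, with no shared barcodes or at resolution 0.8, 79 with at least 2000 UMIs per cell, 4 with no filter and 8 without the highest doublet scores; 417 had an unadjusted p under 0.05. For niacin in CD8 T cells 0 were called by edgeR, 70 with DESeq2, 165 with all copies, 488 with at least 2000 UMIs, 246 with no filter, 72 with no shared barcodes, 425 at resolution 0.8 and 101 without the highest doublet scores, and no receptor was among them. The cause of these changes was not tested. In CD8 T against CD8-negative T cells the log2 values of Klrc1 (0.42) and Klrc2 (0.33) changed sign with no shared barcodes, and leaving out a library gave -0.26 to 0.44 for Klre1, -0.41 to 0.56 for Klrk1 and -0.46 to 0.37 for Klrc1. The same for niacin in NK-like cells gave -0.62 to 1.66 for Klra8 and -0.25 to 1.24 for Klrc1, and in CD8 T cells -0.60 to 0.62 for Klrc2, as ratios of 1 library a group with no test. Another 28 sign changes, all of values under the threshold, were smaller than 1 SE. Of the alternatives, 165 of 169 values in NK-like against CD8 T cells and 56 of 69 in CD8 T against CD8-negative T cells were counted as unchanged. For niacin 137 of 141 in NK-like cells and 44 of 46 in CD8 T cells were. A tested value was so counted if it kept its direction and side of the threshold. Sign changes smaller than 1 SE, with neither value called, were counted as unchanged too. A value without a test was counted as unchanged if it lay within 1 SE of the main value. No paired analysis was possible because the niacin and control libraries share only replicate number 2; between classes the library was the block. Depth limits the NK-like sums of the niacin libraries (15 and 21 cells).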
